A study of Arabidopsis thaliana with 14 samples.

Results

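The clade A protein phosphatases 2C (PP2C) of Arabidopsis thaliana are 9 genes that hold the response to the drought hormone abscisic acid (ABA) in check: ABI1, ABI2, HAB1, HAB2, HAI1, HAI2, HAI3, AHG1 and AHG3, which the annotation calls PP2CA. They were taken by gene identifier, as 9 of the 34218 genes counted. In a leaf with little ABA these enzymes remove phosphate from the SnRK2 kinases and so keep them inactive. When ABA binds its soluble PYR, PYL and RCAR receptors, the receptors close on the phosphatases and block them, the kinases become active, and they phosphorylate the ABF transcription factors and ion channels such as SLAC1 of guard cells. The ABFs then raise the transcription of many ABA response genes, and most of the phosphatase genes are known to be among them, a negative feedback on the pathway.

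The libraries were made from total RNA of rosette leaves of 30-day-old ft-10 plants, a late-flowering line in which the flowering gene FT is disrupted, grown in soil at 22 °C with 16 h of light and 8 h of dark. Silk microneedles, small spikes of silk protein pressed into the leaf, carried 15 mM gibberellic acid (GA3), a growth hormone, or nothing (mock). Leaves were taken without a needle (untreated, 0 h, 3 libraries), 3 h after GA3 needles (3 libraries), 24 h after GA3 needles (3 libraries), 24 h after mock needles (3 libraries) and 168 h after GA3 needles (2 libraries). Every plant was ft-10, and the submitters call the libraries of a group biological replicates. No untreated or mock leaves were taken at 3 h or 168 h, so needle, GA3 and time since 0 h cannot be told apart at those times. The 3 h leaves also differ from the others in hour of the day, since 24 h and 168 h are whole days. At 24 h the mock needle is the control for GA3, but no untreated leaves were taken then. Needle and time since 0 h therefore cannot be told apart in either 24 h group against untreated leaves.

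The 14 libraries held 20448913 to 26537437 reads each, of which 88.8% to 95.8% were counted in genes. Markers of leaf mesophyll were abundant in every library, at 16611 to 44992 counts per 1000000 counts in genes (CPM) summed over 5 genes, while the summed seed and flower markers reached at most 1.46 and 1.22 CPM. The third replicate at 3 h stood apart. It had the lowest share of reads in genes, 88.8%, and the highest share of multimapping reads, 4.65%. It was also far above the other libraries of its group for several ABA response genes, with RAB18, a dehydrin, at 21.8, 26.1 and 476 CPM in replicates 1, 2 and 3. Results at 3 h are therefore given with and without it. Untreated replicate 1 also lay apart, by the chi-square of gene counts per degree of freedom between 2 libraries. This was 138 and 134 against untreated replicates 2 and 3, which were at 19.3 to each other. For 3 h replicate 3 it was 150 and 101, with 32.7 between replicates 1 and 2. Untreated replicate 1 had the highest untreated level of every tested member with counts there. Leaves are a mixture of cells, and in such samples fewer cells of a type and less RNA per cell cannot be told apart.

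By the TAIR10.1 annotation all 9 are protein-coding genes. ABI1 (AT4G26080) lies at chr4:13219915-13222376, ABI2 (AT5G57050) at chr5:23087122-23089631, HAB1 (AT1G72770) at chr1:27389948-27393327 and HAB2 (AT1G17550) at chr1:6034270-6037398. HAI1 (AT5G59220) lies at chr5:23894404-23896939, HAI2 (AT1G07430) at chr1:2280746-2282828 and HAI3 (AT2G29380) at chr2:12608675-12610350. AHG1 (AT5G51760) lies at chr5:21026805-21029188 and AHG3 (AT3G11410) at chr3:3583782-3585850.

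The upstream sequences of 4 members are shown because they span the range of the family in the letters ACGTG, the core of the ABA-responsive element that ABFs bind. Each is the 300 bases directly upstream of the annotated gene start (TAIR10.1, RefSeq), 5′ to 3′ on the gene's strand, with ACGTG on either strand in capitals.
HAI2 (chr1:2282829-2283128, minus strand): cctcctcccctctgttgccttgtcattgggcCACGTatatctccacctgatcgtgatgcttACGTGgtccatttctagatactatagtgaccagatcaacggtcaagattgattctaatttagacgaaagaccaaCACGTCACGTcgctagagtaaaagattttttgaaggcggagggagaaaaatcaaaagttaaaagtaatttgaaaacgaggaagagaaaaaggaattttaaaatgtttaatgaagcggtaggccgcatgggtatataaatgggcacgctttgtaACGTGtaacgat
AHG3 (chr3:3585851-3586150, minus strand): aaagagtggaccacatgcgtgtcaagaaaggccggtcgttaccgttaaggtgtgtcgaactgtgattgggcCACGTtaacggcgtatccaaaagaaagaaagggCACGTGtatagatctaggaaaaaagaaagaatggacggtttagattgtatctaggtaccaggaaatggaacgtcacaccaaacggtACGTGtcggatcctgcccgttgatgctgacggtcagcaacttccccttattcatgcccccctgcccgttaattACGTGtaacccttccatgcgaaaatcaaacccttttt
ABI1 (chr4:13222377-13222676, minus strand): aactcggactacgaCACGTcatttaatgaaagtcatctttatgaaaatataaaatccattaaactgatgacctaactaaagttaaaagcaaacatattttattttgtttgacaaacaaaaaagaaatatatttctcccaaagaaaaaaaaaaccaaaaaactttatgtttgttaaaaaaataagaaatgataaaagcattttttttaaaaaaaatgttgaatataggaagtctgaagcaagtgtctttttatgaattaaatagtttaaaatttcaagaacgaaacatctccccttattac
HAI1 (chr5:23896940-23897239, minus strand): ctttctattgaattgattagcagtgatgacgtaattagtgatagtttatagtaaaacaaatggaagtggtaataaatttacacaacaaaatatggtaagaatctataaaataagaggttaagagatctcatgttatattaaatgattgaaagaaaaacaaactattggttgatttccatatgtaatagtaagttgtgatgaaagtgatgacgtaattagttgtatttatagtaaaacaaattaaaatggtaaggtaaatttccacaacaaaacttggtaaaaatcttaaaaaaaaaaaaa
HAI2 and AHG3 held 5 matches each, overlapping matches included, the nearest 12 and 37 bases upstream of the gene start. Of the 27437 windows of the same length upstream of protein-coding genes, 25.6% held at least 1 match and 0.554% held 5 or more. HAB2, HAI3 and AHG1 held 2 matches each, ABI1 and HAB1 held 1 each, and ABI2 and HAI1 held none in these 300 bases. The matches of AHG1 were the 2 strands of 1 palindrome, the G-box CACGTG, and AHG3 held a G-box too; 7.09% of windows held one. The letters CCGAC, the core of the dehydration-responsive element, were found upstream of AHG1 and AHG3, and in 13.9% of windows. A match in these letters is a description of the sequence, not evidence of binding. HAI1 and HAI2, with 0 and 5 matches, rose by 5.0 and 5.05 on the log2 scale at 3 h. Without the third replicate at 3 h the changes were 2.44 (edgeR adjusted p = 0.199) and 4.25. A relation between matches and changes was not tested.

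In untreated leaves 4 members made up most of the family's transcript pool. Compared per kilobase of exon, AHG3 stood at 28 ± 12.7 CPM per kb (SD, n = 3), ABI1 at 25.6 ± 7.26, HAB2 at 20.7 ± 2.86 and HAB1 at 14.8 ± 6.03, and neighbours in this order lay within each other's spread. ABI2 followed at 3.7 ± 1.34 CPM per kb. The HAI genes, named for their strong induction by ABA, and AHG1, known mainly from seeds, were close to silent: HAI1 stood at 0.885 ± 1.18, HAI2 at 0.141 ± 0.127 and HAI3 at 0.0594 ± 0.103 CPM per kb, and AHG1 had no count in the 3 libraries.

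**Figure D1:**
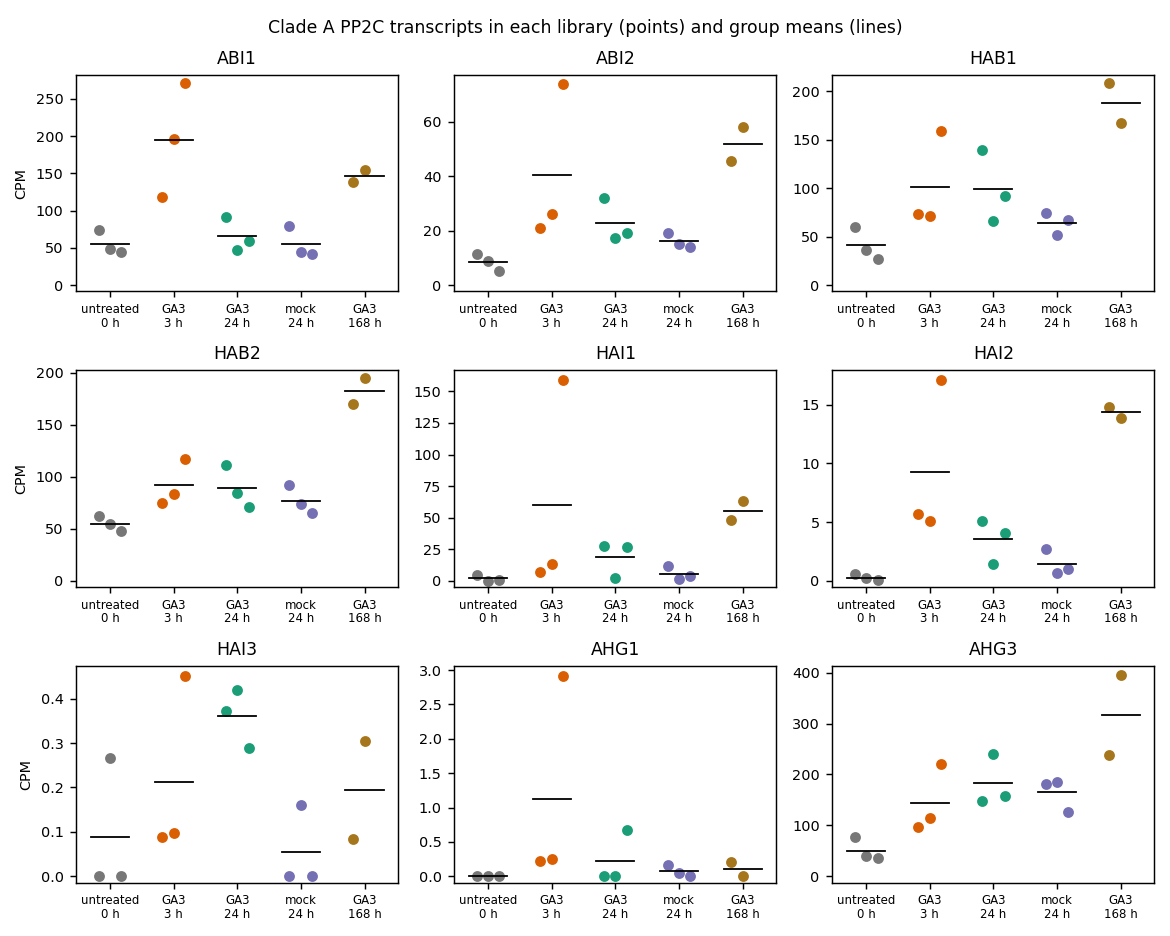
Level of each clade A PP2C gene in CPM (linear axis from 0, a separate scale for each gene) in the 14 libraries, by group. Points are libraries and lines are group means; the high point at 3 h for HAI1, HAI2 and AHG1 is replicate 3, at 159 CPM, 17.1 CPM and 2.92 CPM.

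At 3 h after the GA3 needle the family was higher nearly throughout. Of the 8 members with enough counts to test, 7 were higher than in untreated leaves and none was lower (edgeR quasi-likelihood test, adjusted p under 0.05), where 8.55% of all 20077 genes tested were higher. The median log2 fold change of the 8 members was 2.03, beside -0.000143 over all genes. The 8 include AHG1, at 7.61 with no count in untreated leaves, which raises that median. All libraries at 3 h lay above all untreated libraries for 8 of the 9 members, as they did for 17.9% of genes. Without the third replicate at 3 h, 3 of 7 members tested were higher (ABI1, ABI2 and HAI2), beside 7.76% of genes, and the members' median was 1.47. AHG1 was then below the count filter, so the medians with and without that replicate cover different members.

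ABI1, known from a dominant mutation that makes plants insensitive to ABA, stood at 73.7, 48.1 and 45.1 CPM in untreated leaves and at 118, 196 and 271 CPM at 3 h. The 2 groups did not overlap, and the rise was 1.81 on the log2 scale (SE 0.36, edgeR adjusted p = 0.00778), or 1.49 (adjusted p = 0.0206) without the third 3 h replicate. ABI2, its closest relative, went from 11.3, 8.88 and 5.2 CPM to 20.9, 26.3 and 74 CPM. Again every 3 h library was higher than every untreated one, and the rise was 2.25 (SE 0.46, edgeR adjusted p = 0.00867), or 1.47 (adjusted p = 0.0154) without that replicate.

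HAB1 and HAB2, related phosphatases that limit ABA responses of stomata and growth, followed. HAB1 went from 60.1, 36.4 and 27.4 CPM to 73.1, 71.4 and 159 CPM, a log2 change of 1.29 (SE 0.38, edgeR adjusted p = 0.0414). Of these 3 h values only that of replicate 3 was well clear of the highest untreated library. HAB2 went from 62.5, 54.5 and 47.4 CPM to 75.1, 83.5 and 117 CPM, a log2 change of 0.75 (SE 0.22, edgeR adjusted p = 0.0392). Without the third 3 h replicate neither was called, at 0.80 (adjusted p = 0.139) for HAB1 and 0.53 (adjusted p = 0.118) for HAB2.

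AHG3, a phosphatase that acts in both seeds and leaves and binds SLAC1, stood at 76.6, 39.1 and 35.3 CPM in untreated leaves and at 96.3, 114 and 221 CPM at 3 h. The groups did not overlap, and the log2 change was 1.51 (SE 0.39, edgeR adjusted p = 0.0234), or 1.06 (adjusted p = 0.0715) without the third 3 h replicate. HAI2, one of the HAI group known from drought and osmotic stress, was at 0.531, 0.222 and 0.053 CPM before and at 5.69, 5.07 and 17.1 CPM at 3 h. This was a log2 change of 5.05 (SE 0.83, edgeR adjusted p = 0.00289), and 4.25 (adjusted p = 0.00619) without that replicate, from 18 counts in the untreated group to 650.

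HAI1, a phosphatase also known from ageing leaves, rose as steeply but unevenly. Its level was 4.65, 0.0888 and 0.796 CPM in untreated leaves and 6.93, 13.3 and 159 CPM at 3 h. The first untreated library came close to the lowest 3 h library, and replicate 3 was far above the other 3 h libraries. The log2 change was 5.0 (SE 1.5, edgeR adjusted p = 0.0441), and 2.44 (adjusted p = 0.199) without replicate 3. AHG1 had 5, 5 and 71 counts at 3 h and none in untreated leaves, at least 25.6-fold higher against a floor of 3 counts over the untreated group, and at least 4.94-fold without replicate 3. It was not called by edgeR (adjusted p = 0.0734) and was by DESeq2 (adjusted p = 0.0206). HAI3 had 2, 2 and 11 counts at 3 h and 0, 6 and 0 before, too few to test.

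The calls at 3 h also rested on the controls. Leaving out untreated replicate 2 or untreated replicate 3 left the same 3 members called as leaving out 3 h replicate 3, ABI1, ABI2 and HAI2. With untreated replicate 3 out, for example, HAI1 was at 4.65 (adjusted p = 0.14) and AHG3 at 1.31 (adjusted p = 0.0917). Leaving out 3 h replicate 2 ended the calls of HAB2 (0.79, adjusted p = 0.0736) and HAI1 (5.45, adjusted p = 0.0559). ABI1, ABI2 and HAI2 were called with any 1 library left out, and ABI1 was not called when 3 h replicate 3 and untreated replicate 3, the libraries with over 3% multimapping reads, were left out together (1.37, adjusted p = 0.073).

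**Figure D2:**
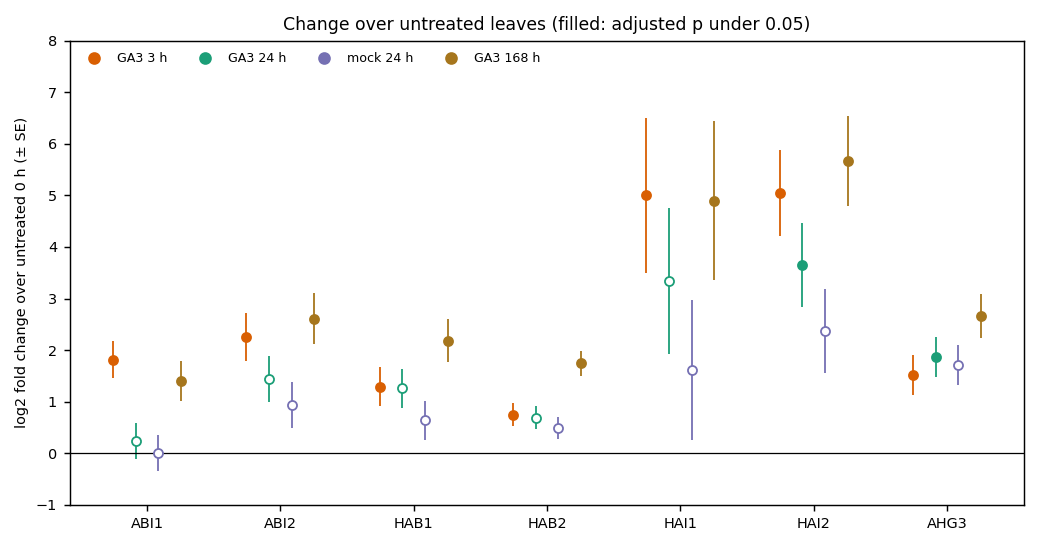
Log2 fold change over untreated leaves with its standard error (bars) for the 7 members with counts in the untreated group that were tested, in the 4 comparisons with untreated leaves. Filled points had an edgeR adjusted p under 0.05; ABI1 lies at 0.24 and -0.000988 at 24 h, between 1.81 at 3 h and 1.40 at 168 h.

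At 24 h the members had parted. AHG3 and HAI2 were still higher than in untreated leaves with the GA3 needle, 2 of 8 members tested beside 2.92% of all genes, whereas ABI1 was back at its untreated level. AHG3 stood at 148, 241 and 158 CPM, all above every untreated library, a log2 change of 1.86 (SE 0.39, edgeR adjusted p = 0.0237). HAI2 stood at 5.07, 1.42 and 4.08 CPM, also clear of the untreated group, a change of 3.65 (SE 0.81, edgeR adjusted p = 0.0274). ABI1 stood at 91, 47.1 and 58.9 CPM, overlapping the untreated values, with a change of 0.24 and a 95% interval from -0.45 to 0.93.

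The other members were in between at 24 h. ABI2 at 32.2, 17.5 and 19.1 CPM (log2 1.44, adjusted p = 0.0861), HAB1 at 139, 66.2 and 92.3 CPM (1.26, adjusted p = 0.0765) and HAB2 at 111, 83.9 and 71 CPM (0.69, adjusted p = 0.0851) lay above every untreated library and were not called by edgeR. DESeq2 called these 3 as well, at adjusted p = 0.0188, 0.0148 and 0.0265, where it called 1454 of 20665 genes higher. HAI1 at 27.7, 2.36 and 26.4 CPM overlapped the untreated group and was not called (3.34, adjusted p = 0.184). In all, 6 of 9 members did not overlap the untreated group, as did 14.2% of genes; the sixth was HAI3, with 8, 8 and 6 counts. AHG1 had 0, 0 and 14 counts.

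These 24 h calls depended on single libraries. AHG3 was not called without untreated replicate 2 (1.7, adjusted p = 0.0801), untreated replicate 3 (1.65, adjusted p = 0.109) or GA3 24 h replicate 2 (1.60, adjusted p = 0.0834). HAI2 was not called without untreated replicate 2 (3.51, adjusted p = 0.0896), untreated replicate 3 (3.21, adjusted p = 0.113) or GA3 24 h replicate 1 (3.29, adjusted p = 0.0767). HAB1 was called without untreated replicate 1 (1.63, adjusted p = 0.0366).

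AHG3 was also high with the mock needle, at a mean of 165 ± 33.2 CPM (SD, n = 3) beside 182 ± 51 with GA3. Its 3 mock libraries stood at 182, 186 and 127 CPM, all above the untreated group, a log2 change of 1.71 (SE 0.39, edgeR adjusted p = 0.068) that edgeR did not call and DESeq2 did (adjusted p = 0.00112). No member was called for the mock needle by edgeR, where 0.608% of genes were higher. In edgeR 3 members had an unadjusted p under 0.05, beside 3254 of 20077 genes. DESeq2 called 2 members higher, AHG3 and HAI2, beside 764 of 21141 genes. HAI2 stood at 2.74, 0.645 and 0.99 CPM (2.37, edgeR adjusted p = 0.187), above all untreated libraries. Without untreated replicate 1, the untreated library with the highest AHG3 level, edgeR called AHG3 (2.15, adjusted p = 0.0385).

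The remaining mock values were closer to the untreated ones. ABI2 at 19.2, 15.2 and 14 CPM (log2 0.93, adjusted p = 0.331) and HAB2 at 91.7, 73.3 and 65 CPM (0.49, adjusted p = 0.291) lay above the untreated group, and 4 of 9 members in all did not overlap it, beside 12.8% of genes. ABI1 at 79.7, 45.1 and 42 CPM, HAB1 at 74.2, 51.9 and 67.1 CPM and HAI1 at 11.9, 1.72 and 3.47 CPM overlapped it. HAI3 had 0, 3 and 0 counts and AHG1 had 3, 1 and 0.

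GA3 and mock needles were compared directly at 24 h, the one comparison in which the needle and the hour were shared. No member differed in edgeR, 0 had an unadjusted p under 0.05, and DESeq2 called 0. Over all genes edgeR called 0% in either direction, with 1322 genes at an unadjusted p under 0.05, and DESeq2 called 19 higher and 28 lower. All 8 log2 differences were above 0, with a median of 0.56 beside -0.00281 over all genes, and all 8 had 95% intervals that include 0. The share of all genes above 0 was not computed. The members were read from the same libraries, so their shared direction is not 8 separate observations. With 1 library left out, the lowest difference was -0.07 for ABI1 and -0.11 for AHG3. AHG3 differed least, by 0.14 with an interval from -0.60 to 0.88, followed by HAB2 at 0.21 (-0.21 to 0.63) and ABI1 at 0.24 (-0.45 to 0.93). ABI2 was at 0.51 (-0.36 to 1.37), HAB1 at 0.62 (-0.11 to 1.36) and HAI2 at 1.28 (-0.08 to 2.64). The widest intervals were those of AHG1, from -2.09 to 5.36 around 1.63 on 14 against 4 counts, and HAI1, from -0.82 to 4.27 around 1.73, so a difference of several fold between GA3 and mock was not detectable for either. HAI3 alone did not overlap, with 8, 8 and 6 counts against 0, 3 and 0, beside 7.02% of genes, and it was too low to test.

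At 168 h, with 2 libraries, 7 of the 8 members tested were higher than in untreated leaves, beside 15.1% of all genes. These 7 lay above every untreated library, as did 28.6% of genes. The median of the 8 members, AHG1 included, was 2.63, beside 0.01 over all genes. ABI2 at 45.5 and 58.1 CPM rose by 2.61 (SE 0.49, edgeR adjusted p = 0.00306). HAB1 at 208 and 167 CPM rose by 2.18 (SE 0.42, adjusted p = 0.00321), and HAB2 at 170 and 195 CPM by 1.74 (SE 0.24, adjusted p = 0.000733). AHG3 at 239 and 396 CPM rose by 2.66 (SE 0.43, edgeR adjusted p = 0.00144), and HAI2 at 14.8 and 13.9 CPM by 5.67 (SE 0.87, adjusted p = 0.00125). These 5 members had their highest group mean of the study at 168 h, and they were called with any 1 library left out.

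ABI1 and HAI1 were called at 168 h with less margin. ABI1 at 139 and 155 CPM rose by 1.40 (SE 0.39, edgeR adjusted p = 0.0183) and was not called without untreated replicate 2 (adjusted p = 0.0576), untreated replicate 3 (0.0623) or 168 h replicate 2 (0.105). HAI1 at 47.8 and 63.3 CPM rose by 4.90 (SE 1.54, edgeR adjusted p = 0.0315). Both libraries were far above its highest untreated library, and it was not called without untreated replicate 2 (adjusted p = 0.0816), untreated replicate 3 (0.0964), 168 h replicate 1 (0.0559) or 168 h replicate 2 (0.1). AHG1 had 5 and 0 counts and HAI3 had 2 and 7, both overlapping the untreated group.

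Some markers of cell types also differed from untreated leaves at 168 h and at 3 h. The summed guard-cell markers were at 74.8 to 156 CPM, against 51.4 to 55.4 CPM in untreated leaves. Of the 6, KAT1, a potassium channel, rose (2.51, edgeR adjusted p = 0.00134) and HT1, a kinase, fell (-1.38, adjusted p = 0.0158). KAT1 went from a mean of 15.4 to 88.2 CPM, while the median log2 change of the 6 was -0.20. The higher sum at 168 h was thus that of KAT1, not of the list as a whole. The summed mesophyll markers were at 16611 to 21958 CPM against 32659 to 41135 CPM, and 3 of the 5 fell, CA1 (-4.53, adjusted p = 0.00334), RBCS1A (-1.87, adjusted p = 0.00288) and LHCB2.1 (-0.84, adjusted p = 0.0361). At 3 h the guard-cell sum was 60.8 to 71.2 CPM and the mesophyll sum 17346 to 30437 CPM, with none of either list called. The summed vascular markers were at 535 to 559 CPM at 3 h against 807 to 865 CPM in untreated leaves, and 2 of the 6 fell, SUC2 (-0.70, edgeR adjusted p = 0.0445) and SULTR2;1 (-0.85, adjusted p = 0.0106). At 168 h XCP1 (-2.92, adjusted p = 0.00109) and SWEET11 (-0.77, adjusted p = 0.0438) fell, at a sum of 595 to 812 CPM. Over all genes 15.1% were higher and 16.1% lower at 168 h, and 8.55% and 5.64% at 3 h. KAT1, CA1, RBCS1A, XCP1 and SULTR2;1 were called with any 1 library left out, and the other markers named were not. The part of these markers in the members' changes was not tested.

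Between the times after the GA3 needle, ABI1 was the only member called lower and then higher. HAI2 (-1.40 and then 2.02), HAI1 (-1.66 and 1.56) and ABI2 (-0.82 and 1.17) went the same way without being called in either step. From 3 h to 24 h ABI1 fell by 1.57 on the log2 scale (SE 0.36, edgeR adjusted p = 0.0185), with no overlap. It was the only one of 8 members called lower, beside 5.72% of all genes. None was called higher, beside 5.68%. The call was lost without 3 h replicate 2 (adjusted p = 0.0536), 3 h replicate 3 (0.056), 24 h replicate 2 (0.0838) or 24 h replicate 3 (0.0596), at changes between -1.25 and -1.54. HAI2 was not called (-1.40, adjusted p = 0.19), and its highest 24 h and lowest 3 h levels were both 5.07 CPM. By the unrounded values ABI1 and HAI2, 2 of 9 members, did not overlap, beside 17.2% of genes. HAI1 was at -1.66 (adjusted p = 0.424), and at 0.90 without 3 h replicate 3. AHG3 was at 0.34 (95% interval -0.40 to 1.09), HAB1 at -0.03 (-0.76 to 0.71) and HAB2 at -0.05 (-0.47 to 0.37).

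From 24 h to 168 h, HAB2 rose by 1.04 (SE 0.24, edgeR adjusted p = 0.00967) and ABI1 by 1.16 (SE 0.39, adjusted p = 0.0471), 2 of 8 members beside 10.3% of all genes. Of the 9 members 6 lay above all their 24 h libraries, as did 29% of genes. HAB2 was not called without 168 h replicate 2 (0.90, adjusted p = 0.0982). ABI1 was not called without 24 h replicate 2 (0.97, adjusted p = 0.14), 24 h replicate 3 (1.09, adjusted p = 0.129), 168 h replicate 1 (1.24, adjusted p = 0.0944) or 168 h replicate 2 (1.04, adjusted p = 0.218). HAI2 was at 2.02 (adjusted p = 0.0603), ABI2 at 1.17 (0.0939), HAB1 at 0.92 (0.12), AHG3 at 0.80 (0.176) and HAI1 at 1.56 (0.425).

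The make-up of the pool differed between groups, as did its size. Summed per kilobase, the 9 members came to 93.9 ± 31 CPM per kb in untreated leaves (SD, n = 3), 293 ± 155 at 3 h, 222 ± 23.8 at 24 h with GA3, 180 ± 34 at 24 h with mock, and 386 and 489 in the 2 libraries at 168 h. AHG3 and ABI1 shared the lead in untreated leaves, at 29.1% ± 3.42 and 27.6% ± 1.58 of the sum, and at 3 h, at 27.8% ± 1.97 and 32.1% ± 6.27. At 24 h AHG3 made up 46% ± 13.7 with GA3 and 51% ± 6.04 with mock, and ABI1 13.5% ± 3.61 and 14% ± 2.82. At 168 h AHG3 was at 34.3% and 45%, and ABI1 at 16.5% and 14.6%.

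The ratio of AHG3 to ABI1, both per kilobase, put this in single libraries. It was 1.25, 0.98 and 0.943 in untreated leaves and 0.981, 0.701 and 0.98 at 3 h, with overlap (exact permutation test on log2 ratios, two-sided p = 0.6). It was 1.96, 6.16 and 3.23 at 24 h with GA3, 2.75, 4.98 and 3.63 with mock, and 2.07 and 3.08 at 168 h. Every library at 24 h or 168 h was thus above every untreated and 3 h library. The exact permutation p was 0.1 for either needle at 24 h against untreated leaves, the smallest that 3 against 3 libraries allow. It was 0.2 at 168 h, where 2 libraries were compared with 3 and the groups did not overlap either. GA3 and mock overlapped (exact permutation p = 0.9). Of the 7 comparisons of this ratio none can pass an adjustment. The ratio restates the levels of 2 members given above, so its p-values are not separate support for their parting at 24 h.

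**Figure D3:**
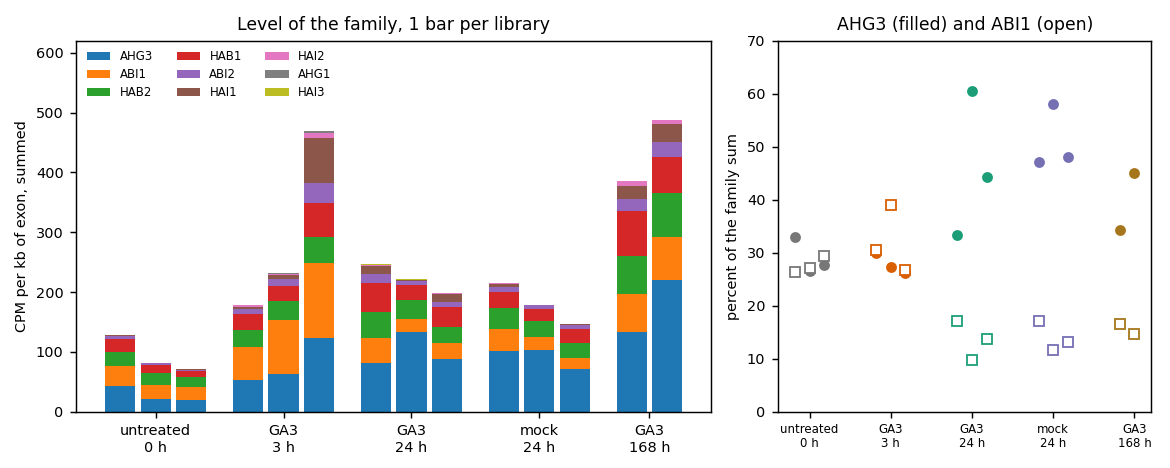
Left, summed level of the 9 members in CPM per kb of exon, 1 bar per library, divided by member. Right, percent of that sum from AHG3 (filled circles) and ABI1 (open squares) in each library: the 2 lie together at 0 h and 3 h, and AHG3 lies above ABI1 in all 8 libraries at 24 h and 168 h.

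The members also differed in how far libraries of 1 group lay apart. The pooled SD of log2 CPM within groups was 0.27 for HAB2, 0.47 for ABI1, 0.50 for HAB1 and for AHG3, and 0.59 for ABI2, against a median of 0.35 over all genes tested. It was 0.93 for HAI2 and 1.95 for HAI1, larger than for 90% and 99.5% of genes. For HAI1 the highest library was 52.4 times the lowest in untreated leaves, 22.9 times at 3 h and 11.7 times at 24 h with GA3. The library that was high for HAI1 at 3 h was also high for other genes that ABA induces strongly. RD29B (LTI65) stood at 0.75, 0.878 and 83.5 CPM in the 3 h replicates, and LEA7, a late embryogenesis abundant protein, at 0.132, 0.293 and 150 CPM. RD29A (LTI78), which cold and drought also induce without ABA, was high in all 3, at 2004, 1859 and 2509 CPM against 18 to 55.5 CPM in untreated leaves. Of the summed seed markers 1.46 CPM was the most in any library, with CRU3, SESA3, OLEO1 and OLEO2 at 0 in all 14, so the AHG1 counts of replicate 3 came with seed markers near 0.

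**Figure D4:**
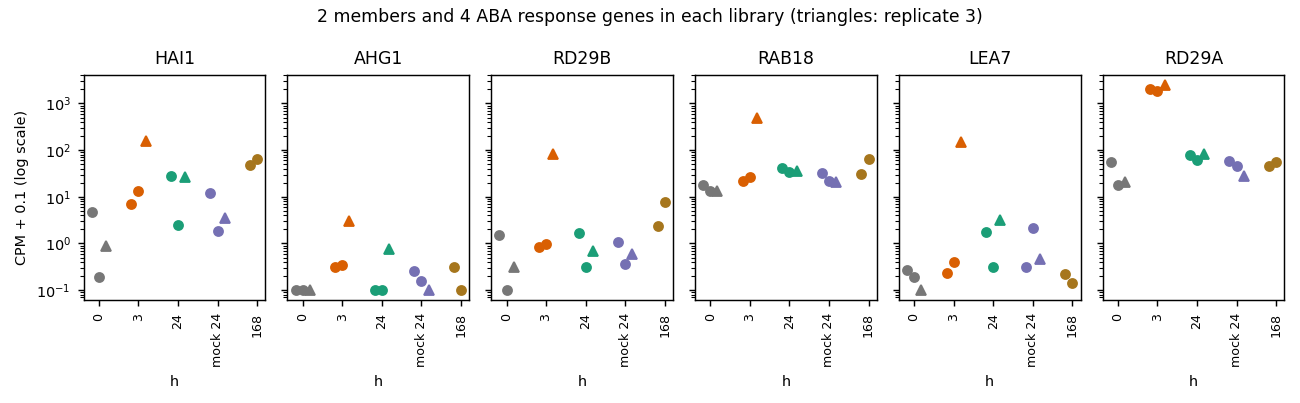
HAI1, AHG1 and 4 ABA response genes in each library, as CPM + 0.1 on a log axis, by hours after treatment; triangles are replicate 3. At 3 h the triangle is far above the 2 circles for HAI1, AHG1, RD29B, RAB18 and LEA7, and close to them for RD29A.

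Genes whose course over the 14 libraries was closest to each member were sought by the root mean square difference of centred log2 CPM, a description that gives no test. Closest to ABI1 were PP2-B11, an F-box protein (0.35), and the kinase MPK7 (0.36), where a gene drawn from all those tested differed from ABI1 by a median of 0.98. SPDS3 (0.35) and BGLU10 (0.37) were closest to ABI2, CYP89A5 (0.24) and ECT8 (0.29) to HAB1, and BLH1 (0.19) and NYE1 (0.19), which acts in chlorophyll breakdown, to HAB2. RD20, an ABA-induced caleosin, was second to PAP17 for HAI2 (0.70 and 0.67). The ubiquitin ligase PUB19 (1.18) and RD29B (1.25) were closest to HAI1, where the median gene differed by 2.58. CYP71B12 (0.37) and FBH3 (0.40) were closest to AHG3, and ADC2 (0.86) and PIP1;4 (0.87) to AHG1, whose course is set by few counts. Within the family the closest pairs were ABI2 with HAB1 and HAB1 with HAB2 (0.37 each).

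The rest of the pathway was read from the same comparisons, which share the untreated libraries. At 3 h none of the 9 receptors tested of 14 was higher and 4 were lower, beside 5.64% of all genes, with a median log2 change of -0.86: PYL6 by -4.99 (SE 0.89, edgeR adjusted p = 0.00458), PYL4 by -3.18 (SE 0.63, adjusted p = 0.00747), PYR1 by -1.39 (SE 0.29, adjusted p = 0.00995), and RCAR3 (PYL8). The first 3 were called with any 1 library left out. At 168 h, 3 receptors were lower, PYL4 (-3.46, adjusted p = 0.00591), PYL6 (-4.22, 0.00957) and RCAR3 (-0.82, 0.00928), where 16.1% of all genes were lower, and at 24 h with GA3, 2 were, PYL6 (-4.29, 0.0208) and RCAR3 (-1.08, 0.0121), beside 2%. No receptor was called for the mock needle by edgeR, with PYL6 at -2.76 (adjusted p = 0.12) and RCAR3 at -0.59 (0.125). GA3 against mock was not called for either, at -1.53 (edgeR adjusted p = 0.759) and -0.49 (0.75). Over untreated leaves, PYL6 at 24 h with GA3 was called with 3 of 6 libraries left out in turn and RCAR3 with 5 of 6. At 168 h PYL4 was called with 5 of 5, and PYL6 and RCAR3 with 4 of 5.

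**Figure D5:**
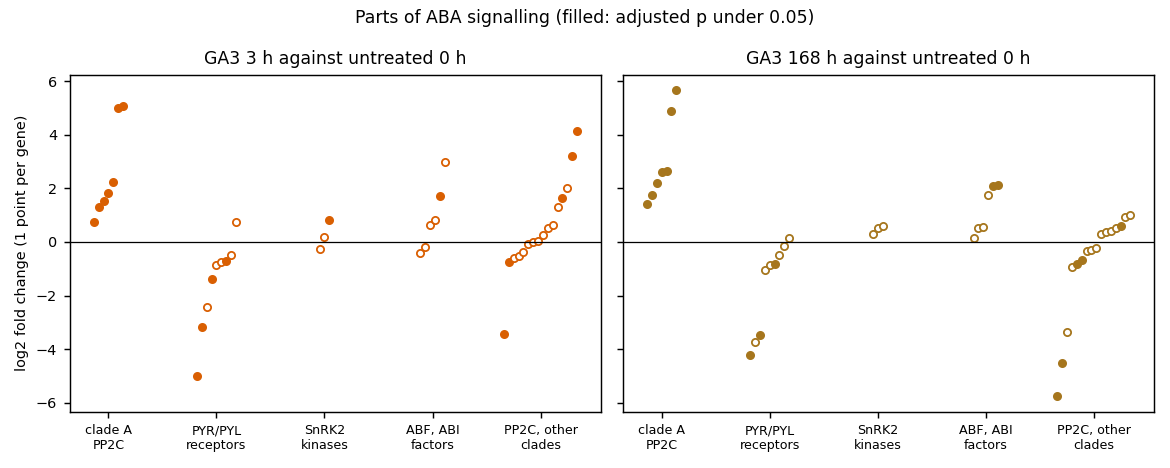
Log2 fold change over untreated leaves at 3 h (left) and 168 h (right), 1 point per gene tested, for the 7 clade A PP2C genes with counts in the untreated group, the ABA receptors, the SnRK2 kinases, the ABF and ABI factors and PP2C of other clades. Filled points had an edgeR adjusted p under 0.05: all 7 phosphatases lie above 0 in both panels, and the receptors that were called lie below it.

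Of the 3 SnRK2 kinases that the phosphatases act on, SNRK2.2 was higher at 3 h (0.82, edgeR adjusted p = 0.0305; 0.61, adjusted p = 0.1 without 3 h replicate 3), and none was called at 24 h or 168 h over untreated leaves. Of the 6 ABF and ABI transcription factors tested, ABF1 was higher at 3 h (1.73, adjusted p = 0.00104), ABF3 at 24 h with GA3 (1.21, adjusted p = 0.0438), and ABF2 (2.09, adjusted p = 0.000993) and ABF3 (2.12, adjusted p = 0.00134) at 168 h. With the mock needle ABF3 was at 0.88 (edgeR adjusted p = 0.187), and GA3 against mock was at 0.34 for it (0.859). Of 7 partners and regulators, 1 was higher and 2 were lower at 3 h, beside 8.55% and 5.64% of all genes. HB6, a transcription factor that binds ABI1, rose (1.21, adjusted p = 0.0189). PUB13, a ubiquitin ligase for ABI1, fell (-0.82, adjusted p = 0.00458). So did AT5G22090 (EAR1), which has no symbol in the annotation used (-1.37, adjusted p = 0.00153). HB-7 (3.48, adjusted p = 0.0188) and HB-12 (2.65, adjusted p = 0.0238), transcription factors that raise PP2C genes, were higher at 168 h. ABF1, PUB13, AT5G22090, and ABF2 and ABF3 at 168 h were called with any 1 library left out. HB6 was called with 3 of 6 left out in turn, SNRK2.2 with 1 of 6, ABF3 at 24 h with 2 of 6, HB-7 with 3 of 5 and HB-12 with 2 of 5.

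Of 7 ABA response genes, 5 were higher at 3 h, beside 8.55% of all genes, and 2 to 6 with 1 library left out. RD29A was at 6.08 (edgeR adjusted p = 4.53e-05), RD20 at 3.58 (adjusted p = 0.00396) and RD26 at 2.68 (adjusted p = 0.0157). Without 3 h replicate 3 these were the 3 still called, at 5.94 (adjusted p = 0.000165), 2.95 (0.00902) and 2.09 (0.0438). RD20 (3.78, adjusted p = 0.00205) and RD26 (2.3, adjusted p = 0.021) were higher at 168 h, beside 15.1% of all genes. RD20 was also higher at 24 h with GA3 (2.52, adjusted p = 0.0349). With the mock needle RD20 was at 1.91 (edgeR adjusted p = 0.138), and GA3 against mock was at 0.61 for it (0.865).

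Of 10 genes of ABA synthesis and breakdown tested, 6 were higher at 3 h, beside 8.55% of all genes, and 2 to 5 with 1 library left out. NCED3 of synthesis was at 3.84 (edgeR adjusted p = 0.0114), and CYP707A4 and CYP707A1 of breakdown at 3.34 (adjusted p = 0.00696) and 3.01 (adjusted p = 0.015). CYP707A3, the breakdown gene with the highest untreated level, went the other way and was not called (-3.01, edgeR adjusted p = 0.116). Its mean was 19.9 CPM in untreated leaves and 2.46 CPM at 3 h. Without 3 h replicate 3, 4 were higher, with NCED3 at 3.38 (adjusted p = 0.0265), CYP707A4 at 3.33 (0.0131) and CYP707A1 at 2.75 (0.0341). At 168 h 5 were higher, beside 15.1% of all genes, and 3 to 4 with 1 library left out, with CYP707A2 at 6.06 (adjusted p = 0.00453), CYP707A4 at 3.45 (0.00379) and ABA1 at 0.97 (0.00262). CYP707A2 was at 4.85 (adjusted p = 0.0379) at 24 h with GA3 and at 3.40 (adjusted p = 0.177) with mock. GA3 against mock was at 1.44 for it (edgeR adjusted p = 0.796). Of the ABA response, synthesis and breakdown genes named, RD29A, RD20, NCED3 and CYP707A4 at 3 h and RD20, CYP707A2, CYP707A4 and ABA1 at 168 h were called with any 1 library left out, and the others were not.

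Phosphatases of the same superfamily outside clade A were counted for comparison. Of 16 PP2C genes of other clades, 3 were higher and 2 lower at 3 h, beside 8.55% and 5.64% of all genes, with a median log2 change of 0.14. The clade A genes had 7 of 8 higher and a median of 2.03, with AHG1 among the 8. Without 3 h replicate 3 the other clades again had 3 higher and 2 lower, with a median of 0.24. Clade A, then without AHG1, had 3 of 7 higher and a median of 1.47. The 3 that rose were PP2C5, a phosphatase of MAP kinases (4.13, edgeR adjusted p = 0.000983), and 2 without a symbol in the annotation used. These were AT3G05640 (EGR1, 3.22, adjusted p = 0.000314) and AT5G27930 (EGR2, 1.62, adjusted p = 0.000381). All 3 were called with any 1 library left out. At 168 h 1 was higher and 4 were lower, beside 15.1% and 16.1% of all genes, with a median of -0.27, and 0 to 2 were higher and 1 to 5 lower with 1 library left out. Clade A had 7 of 8 higher there and a median of 2.63. No test of the difference between these lists was made.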

How the data were processed

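Per the submitters' processing notes, reads were aligned with STAR 2.7.7a to TAIR10; the annotation used for counting was not given in the sources used here. The deposited files hold raw counts per gene in 3 strand settings, and by their totals the fourth column matched the strand of the genes. The opposite setting held 4.86% to 5.51% of the counts in genes of both stranded settings together. ABI1 overlaps MEK1 on the opposite strand by 22 bases. Names, exons and sequences came from the RefSeq TAIR10.1 annotation, which held 32548 of the 34218 genes.

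Counts were tested with edgeR 4.0.16 in R 4.3.3 (filterByExpr by group, TMM, quasi-likelihood test with 1 coefficient per group over all 14 libraries, Benjamini-Hochberg adjustment over 20077 genes, threshold 0.05). CPM are counts per 1000000 after TMM scaling, and exon lengths gave CPM per kb. The steps were tested on simulated data. DESeq2 1.42.0, 2 other scalings, no filter, counts that ignore strand, a replicate block, 2-group fits and leaving out libraries were the alternatives. Members and lists were chosen with earlier results of these data known. Named genes are all members and the 2 genes closest in course to each member. Per list and comparison, at most the 3 called genes of smallest p that have a symbol in the annotation were named. RAB18, RD29B, LEA7, RCAR3 (PYL8) and CYP707A3 at 3 h were named after their values were seen. So were AT5G22090, AT3G05640, AT5G27930 and the seed markers.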

Additional observations from a re-analysis of the deposited data

Results flagged for a closer look

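The change over untreated leaves differed between times for 2 members, by the direct test between the GA3 groups. ABI1 was lower at 24 h than at 3 h, by -1.57 on the log2 scale, and higher at 168 h than at 24 h, by 1.16. HAB2 was higher at 168 h than at 24 h, by 1.04. Counts on the opposite strand of HAI1, which no comparison used, numbered 64 over the 3 libraries at 3 h and 0 in untreated leaves, beside 4293 and 122 on its own strand.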

How the results depend on the processing

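Of the 14 counts of members called, those at 168 h over untreated leaves and for GA3 against mock stayed within 1.5 times under every setting run. The number higher at 3 h went from 7 to 3 with only the 2 groups compared and to 2 without both libraries of over 3% multimapping reads, a setting chosen after the data were seen. At 24 h with GA3 it went from 2 to 0 in both of these and to 5 with DESeq2, and for mock from 0 to 2 with DESeq2. The 1 member lower from 3 h to 24 h went to 0 in both. From 24 h to 168 h the 2 became 1 with RLE size factors, with no filter and with 2 groups, and 4 with total counts as library size. Leaving out 1 library gave 3 to 7 members higher at 3 h, 0 to 2 at 24 h with GA3, 0 to 1 for mock, 0 to 1 lower from 3 h to 24 h and 0 to 2 higher from 24 h to 168 h. The cause was not tested, beyond fewer libraries in the fit.

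Signs turned only for changes that were not called. ABI1, mock against untreated, was 0.01 (RLE, no filter, 2 groups, DESeq2) and 0.02 (total counts). From 3 h to 24 h HAB1 was 0.000309 (RLE), 0.000802 (DESeq2) and 0.46 without the multimapping libraries, with HAB2 at 0.16 and HAI1 at 0.90 there. With 1 library left out, ABI1 ranged from -0.35 to 0.25 for mock, from -0.07 to 0.49 for GA3 at 24 h and from -0.07 to 0.59 for GA3 against mock, and AHG3 from -0.11 to 0.27 for GA3 against mock. From 3 h to 24 h HAB1 ranged from -0.35 to 0.46, HAB2 from -0.25 to 0.17 and HAI1 from -2.16 to 0.90. AHG1 from 24 h to 168 h was 0.77 with the replicate block.

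The labels state no pairing of libraries by replicate number. Over 26 same-numbered pairs the median correlation of deviations was 0.0353, and 10 were over 0.1. Over 52 pairs with other numbers the median was -0.0403, and 12 were over 0.1. Whether replicate numbers pair the libraries was not tested further. With the replicate block ABI1 from 24 h to 168 h was 1.19 (edgeR adjusted p = 0.0573) and HAI2 2.38 (adjusted p = 0.0334), and no other member's call changed. AHG1 fell below the count filter in several of these fits and has no value there. HAI3 could not be tested at this depth, and AHG1 rests on 104 counts in all libraries.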
